A study of Caenorhabditis elegans with 6 samples.

Results

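The 5 copies of the 5S ribosomal RNA gene listed among the short transcripts of *Caenorhabditis elegans* were followed after knockdown of RNA polymerase III (Pol III). They are the rows ZK218.12 (*rrn-4.1*), ZK218.16 (*rrn-4.2*), ZK218.17 (*rrn-4.3*), ZK218.18 (*rrn-4.4*) and ZK218.19 (*rrn-4.5*), taken by name, and they are 5 of the 2526 transcripts in the count table. Both groups were whole worms of the Bristol N2 strain, and their food bacteria carried either a vector with no insert (vector control, 3 samples) or an RNAi clone that targets *rpc-1* (*rpc-1* RNAi, 3 samples). *rpc-1* encodes the largest Pol III subunit. Per the study's methods, feeding began at the L4 larval stage, the knockdown was partial, the plates held FuDR, which blocks the production of progeny, and RNA was taken from day 2 adults. RNAs under 200 nucleotides were selected and demethylated before sequencing, so each value is an amount relative to other short RNAs of whole animals. In whole animals, fewer cells of a type and less RNA per cell cannot be told apart. The labels do not say which samples came from separate cultures, and p-values measure only the spread between these samples.

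5S rRNA is a component of the large ribosomal subunit. Its genes are transcribed by Pol III from a promoter inside the gene, which is recognised by the factor TFIIIA. tRNA genes also have internal promoters, but do not need TFIIIA. 5.8S rRNA lies in the same ribosomal subunit and is cut from a long precursor made by RNA polymerase I, which makes it a reference outside Pol III. In *C. elegans* the 5S genes stand in a tandem array together with the genes for SL1 RNA, the spliced leader joined to the start of many mRNAs, which is made by RNA polymerase II. Cells carry many copies of a 5S gene with much the same sequence, so reads cannot always be given to a single copy, and the sum of the copies was therefore reported beside each copy.

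All 5 copies lie on the plus strand of chromosome V (build WBcel235). ZK218.16 is annotated at positions 17115903 to 17116021, ZK218.17 at 17117863 to 17117981, ZK218.18 at 17118837 to 17118935, ZK218.19 at 17120013 to 17120111, and ZK218.12 at 17120968 to 17121086. The models of ZK218.12, ZK218.16 and ZK218.17 are 119 bases long, whereas those of ZK218.18 and ZK218.19 are 99 bases long. The annotation holds 16 5S genes, of which 14 stand in the array over 15.6 kb, with a median spacing of 976 bases between starts. The 5 copies in the table are those at the low-coordinate end of the array, and the other 9 array models have no value here. Ensembl gives the single name *rrn-4.2* to 11 of the array genes, among them both ZK218.12 and ZK218.16. The numbered names used here are those of RefSeq. How counts on a row relate to array copies outside the table was not tested.

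**Figure D1:**
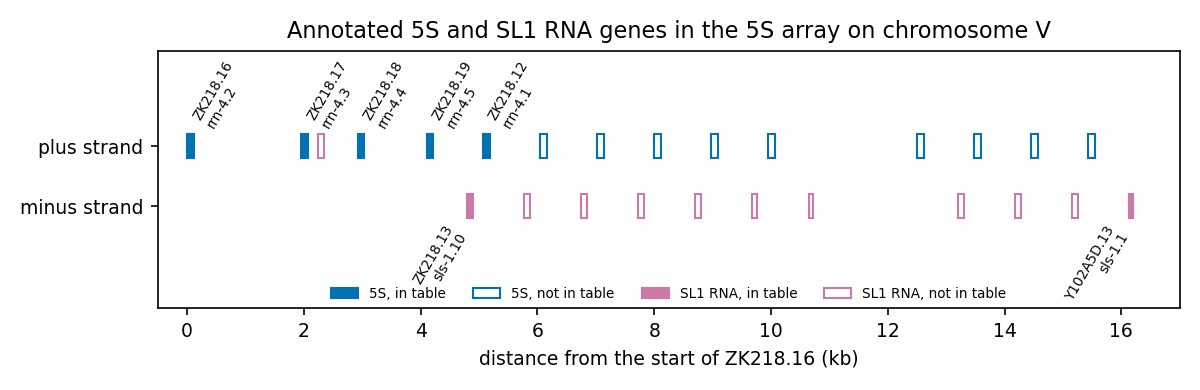
Annotated 5S genes (blue) and SL1 RNA genes (pink) of the array on chromosome V, drawn by strand against the distance in kb from the start of ZK218.16. Filled boxes are genes in the count table, open boxes are not: the 5 measured 5S copies are the first 5 of the 14 array copies, and 2 of the 12 SL1 genes are in the table.

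The libraries held 9362216 to 21685824 counts, with vector control 2 the shallowest, and counting error was small against the spread between samples (the widest 95% Wilson interval of a share below was 0.112 percentage points, which covers counting error only). The share of nuclear tRNAs was 1.34% to 9.87% in controls and 0.351% to 1.12% in *rpc-1* RNAi. In the fit by DESeq2, 26 of 126 tested nuclear tRNAs were called lower and 9 were called higher in *rpc-1* RNAi. Of all 1083 tested transcripts, 45 were called lower and 34 higher. The median log2 fold change was -0.66 for nuclear tRNAs, against 0.00 over all tested transcripts. 5.8S rRNA (F31C3.11) took 9.13% and 9.56% of counts in control 1 and *rpc-1* RNAi 1, and 26.6% to 30.3% in the other four samples. Vector control 2 stood apart in how the 5S counts were divided between copies. The level of *rpc-1* itself was not analysed here.

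As a share of all counts, 5S rRNA was higher in *rpc-1* RNAi than in controls. The sum of the 5 copies took 28.9%, 32.9% and 33.4% of counts in vector controls 1, 2 and 3, and 39.1%, 37.7% and 36.9% in *rpc-1* RNAi 1, 2 and 3. Every *rpc-1* RNAi sample was above every control. The group means were 31.8% ± 2.45 (SD, n = 3) and 37.9% ± 1.12 (SD, n = 3), a difference of 6.13 percentage points, with an exact two-sided permutation p of 0.10, the smallest that 3 against 3 samples allow. Paired by replicate number, the share was higher in 3 of 3 pairs, by 10.1, 4.82 and 3.45 points, and the exact sign-flip permutation p was 0.25, the smallest that 3 pairs allow. Without vector control 2 the difference was 6.70 points and the groups did not overlap.

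A share falls or rises with the other classes in the total. With nuclear tRNAs taken out of the total, the 5S share averaged 33.4% ± 1.28 in controls against 38.1% ± 1.28 in *rpc-1* RNAi (SD, n = 3), still without overlap. With mitochondrial tRNAs taken out it was 38.5% ± 0.962 and 45.4% ± 4.88, also without overlap. With 5.8S rRNA taken out, a total chosen after seeing the data, the groups overlapped: the shares were 31.9%, 46.5% and 47.9% in controls and 43.2%, 53.1% and 50.3% in *rpc-1* RNAi, with means of 42.1% ± 8.91 and 48.9% ± 5.10 (SD, n = 3, exact permutation p 0.40). The groups also overlapped with both nuclear tRNAs and ncRNAs antisense to tRNA genes taken out, at 38.4% ± 2.95 and 43.3% ± 4.68 (SD, n = 3, exact permutation p 0.30).

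Scaled by the size factors of DESeq2, which set the typical transcript to no change, the 5S sum did not separate the groups. It reached 5050975, 6145362 and 5665424 normalised counts in controls 1, 2 and 3, against 6489868, 5740529 and 5685478 in *rpc-1* RNAi 1, 2 and 3. The means were 5620587 ± 548570 and 5971959 ± 449367 (SD, n = 3), and between same-numbered samples the ratio of *rpc-1* RNAi to control was 1.28, 0.934 and 1.004. The overlap rested on control 2: without it the groups did not overlap. Fitted as a single row of the table, the sum had a log2 fold change of 0.09 ± 0.56 (SE, 95% interval -1.01 to 1.20), with a DESeq2 adjusted p of 0.99. The background of that fit was 7.08% of 1130 tested transcripts past a 10% false discovery rate (FDR). In the fit blocked by replicate number it was 0.09 ± 0.22 (SE), and the 95% interval was narrower, at -0.34 to 0.52 (DESeq2 adjusted p 0.83). A change of the 5S sum within these intervals was not detectable with these samples.

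Measured against the Pol I product, 5S was higher in *rpc-1* RNAi within each pair of the same number, but the groups overlapped. There were 3.17, 1.12 and 1.10 5S counts per 5.8S count in controls and 4.09, 1.30 and 1.39 in *rpc-1* RNAi. Sample 1 of either group was far above the others of its group, in step with its low 5.8S share. The means were 1.80 ± 1.19 and 2.26 ± 1.59 (SD, n = 3). On the log2 scale the difference was 0.30 (exact permutation p 0.50). Within pairs of the same number the ratio was 1.29, 1.16 and 1.25 times that of the control, higher in 3 of 3 pairs (exact sign-flip permutation p 0.25).

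**Figure D2:**
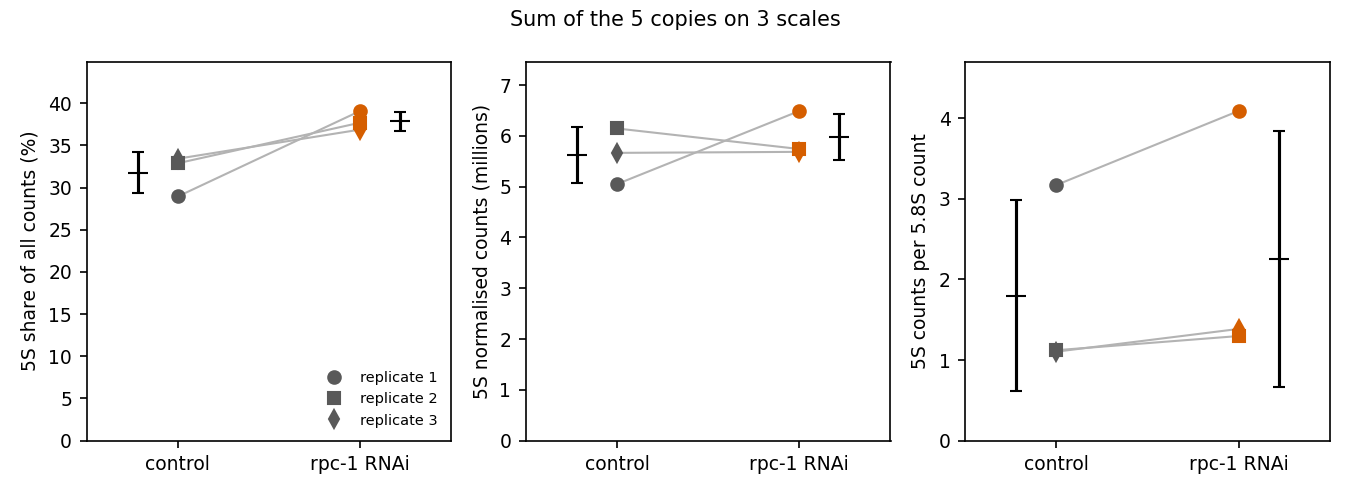
Sum of the 5 copies in each sample as a percent of all counts (left), in normalised counts (middle) and per 5.8S count (right). Points are samples, grey lines join samples of the same replicate number, and black marks give the group mean ± SD (n = 3): the groups separate only in the left panel, and the 3 lines rise in the left and right panels.

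Among controls, the sum varied less than its division between copies. The coefficient of variation of the 5S share of all counts was 7.70% among controls and 2.94% among *rpc-1* RNAi samples. For the share of 5S counts on single copies it ran from 10.6% (ZK218.19) to 173% (ZK218.12) among controls, and from 2.47% (ZK218.17) to 20.6% (ZK218.12) among *rpc-1* RNAi samples.

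ZK218.16 (*rrn-4.2*) and ZK218.19 (*rrn-4.5*) had the largest shares of 5S counts in 5 of 6 samples, all but control 2. ZK218.16 had the larger share of counts of the pair in control 3 and in the 3 *rpc-1* RNAi samples, and ZK218.19 in controls 1 and 2. ZK218.16 held 40.1%, 3.76% and 45.5% of 5S counts in controls 1, 2 and 3, and 51.2%, 56.7% and 50.3% in *rpc-1* RNAi 1, 2 and 3. It was higher in every *rpc-1* RNAi sample than in any control, with control 2 far below the rest. The means were 29.8% ± 22.7 and 52.7% ± 3.50 (SD, n = 3), a difference of 22.9 points (exact permutation p 0.10), which fell to 9.95 points without control 2, where the groups still did not overlap.

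ZK218.19 differed the other way. Its share was 46.2%, 47.4% and 38.8% in controls and 33.1%, 28.1% and 33.3% in *rpc-1* RNAi, with means of 44.1% ± 4.67 and 31.5% ± 2.93 (SD, n = 3). Control 2 was close to control 1 here, and all 3 controls were above all 3 *rpc-1* RNAi samples (difference -12.6 points, exact permutation p 0.10). Within pairs the share was lower in 3 of 3, with differences of -13.1, -19.3 and -5.46 points.

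ZK218.18 (*rrn-4.4*), the other 99-base model, held 13.7%, 2.09% and 15.7% of 5S counts in controls and 12.0%, 11.5% and 13.9% in *rpc-1* RNAi. The groups overlapped, at 10.5% ± 7.36 and 12.5% ± 1.26 (SD, n = 3, exact permutation p 0.90), and control 2 alone was low. Without control 2 the difference turned from 1.99 to -2.22 points.

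ZK218.12 (*rrn-4.1*) was the least steady copy. It drew 2287, 1438262 and 0 counts in controls, against 275068, 266492 and 195300 in *rpc-1* RNAi. It was thus 0 in control 3, low in control 1 and the third most abundant row of the table in control 2. The 3 *rpc-1* RNAi samples lay between these extremes. As shares of 5S counts, the values were 0.0436%, 46.7% and 0 in controls, against 3.63%, 3.53% and 2.44% in *rpc-1* RNAi. By counting error alone, the count of 0 allows a share of up to 4.86e-05%. That limit does not cover how reads were divided between similar copies. The mean was 15.6% ± 27.0 in controls and 3.20% ± 0.659 in *rpc-1* RNAi (SD, n = 3, exact permutation p 1). The direction rested on control 2: without it the difference was 3.18 points, against -12.4 with it.

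ZK218.17 (*rrn-4.3*), also a 119-base model, was the rarest copy in 5 of 6 samples (ZK218.12 was rarer in control 3), and it separated the groups. Its counts were 818, 990 and 1052 for the controls against 4981, 5211 and 5396 for *rpc-1* RNAi. As shares of 5S counts these were 0.0156%, 0.0322% and 0.0170% against 0.0657%, 0.0691% and 0.0675%. All *rpc-1* RNAi samples were above all controls, at 0.0674% ± 0.00166 and 0.0216% ± 0.00917 (SD, n = 3, exact permutation p 0.10). It remained under 0.1% of 5S counts in every sample, so it added little to the sum.

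**Figure D3:**
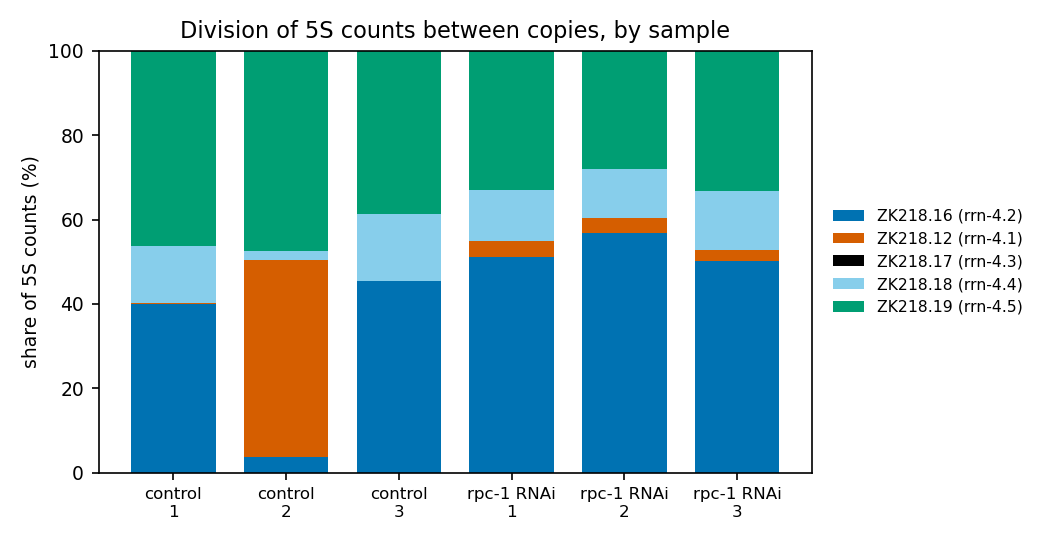
Share of 5S counts on each copy (%, stacked to 100) in the 6 samples. Control 2 differs from the others in the large block of ZK218.12 (46.7%) in place of ZK218.16 (3.76%), and ZK218.19 (green) is smaller in the 3 *rpc-1* RNAi samples. ZK218.17, under 0.1%, is too thin to see.

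The copies were also compared with the counts divided by model length. Per base, ZK218.19 was the highest copy in each of the 3 controls, with 49.5%, 51.8% and 42.0% of the per-base 5S signal. ZK218.16 followed in controls 1 and 3, at 35.8% and 41.0%, so that in control 3 the copies lay close together. In the 3 *rpc-1* RNAi samples ZK218.16 was the highest, at 46.9%, 52.5% and 45.9%, above ZK218.19 at 36.5%, 31.3% and 36.5%. ZK218.18 came next at 12.8% to 15.3%, then ZK218.12 at 2.23% to 3.33% and ZK218.17 at 0.0602% to 0.0639%, with no overlap between any neighbours in that order. In controls the range of ZK218.12, from 0 (control 3) to 42.5% (control 2), overlapped those of every other copy. The ranges of ZK218.16 and ZK218.18 overlapped through the values of control 2. The order of ZK218.12, ZK218.16 and ZK218.18 in controls did not exceed their spread.

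The copies were also joined by model length, a grouping chosen after seeing the data. The 119-base models together held 40.1%, 50.5% and 45.5% of 5S counts in controls and 54.9%, 60.3% and 52.8% in *rpc-1* RNAi. Control 2 lay above the other controls, but below all *rpc-1* RNAi samples. The means were 45.4% ± 5.18 and 56.0% ± 3.90 (SD, n = 3), a difference of 10.6 points (exact permutation p 0.10), higher in 3 of 3 pairs by 14.7, 9.82 and 7.29 points. ZK218.12 and ZK218.16, which share their Ensembl name, made up nearly all of it: their joint share was 45.4% ± 5.17 in controls and 55.9% ± 3.90 in *rpc-1* RNAi. In control 2, 46.7% on ZK218.12 and 3.76% on ZK218.16 thus added to 50.5%. Among the 99-base models, ZK218.18 took 22.9%, 4.21% and 28.9% of the joint counts in controls and 26.7%, 29.1% and 29.5% in *rpc-1* RNAi.

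In normalised counts, ZK218.16 was 2024891, 231276 and 2576322 in controls and 3321625, 3256759 and 2858051 in *rpc-1* RNAi. ZK218.17 was 788, 1976 and 965 in controls and 4266, 3964 and 3836 in *rpc-1* RNAi. ZK218.19 was 2331797, 2913138 and 2196069 in controls and 2147745, 1614650 and 1893123 in *rpc-1* RNAi. Of the 5 copies, 2 were thus higher without overlap (ZK218.16 and ZK218.17) and 1 was lower without overlap (ZK218.19). Among the 817 transcripts with a mean of at least 10 normalised counts, 11.3% were higher and 10.3% lower without overlap.

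**Figure D4:**
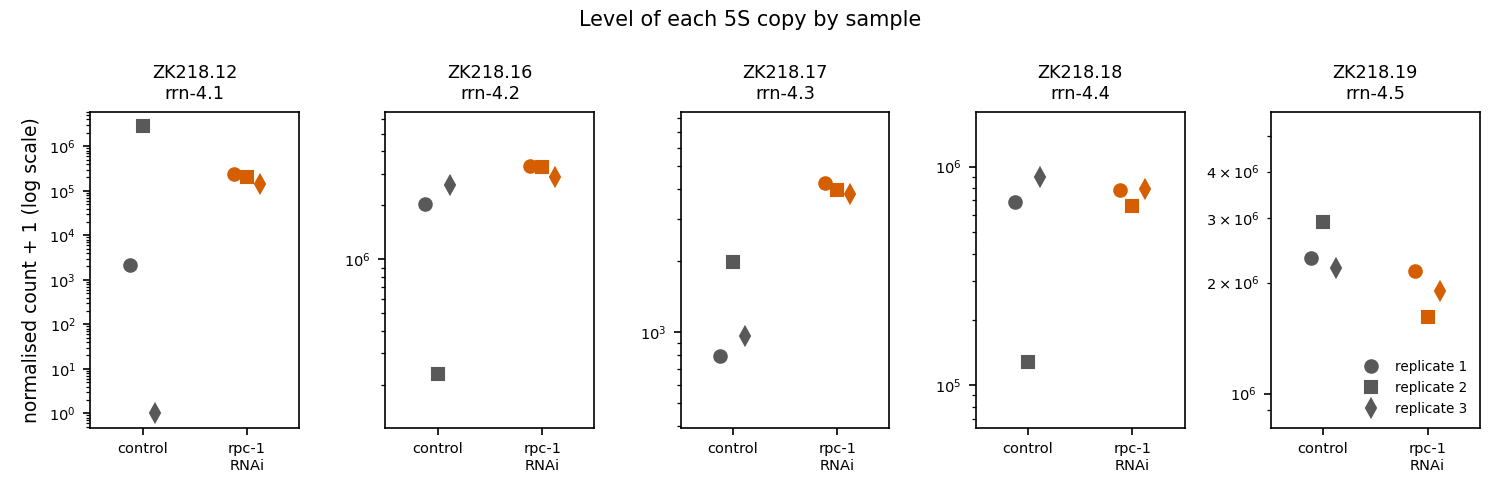
Normalised count + 1 of each copy (log scale, a separate axis per copy) in controls (grey) and *rpc-1* RNAi (orange), with the marker giving the replicate number. Control 2 (square) is the low control of ZK218.16 and ZK218.18 and the high control of ZK218.12, and the groups do not overlap for ZK218.16, ZK218.17 and ZK218.19.

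None of the copies was past 10% FDR in the DESeq2 fit across all transcripts, where 7.29% of those tested were called, and 1 copy had an unadjusted p under 0.05. edgeR's quasi-likelihood test also called 0 of 5, with 1 at an unadjusted p under 0.05, where 7.16% of 796 transcripts were called. The copy nearest to the threshold was ZK218.17, with a log2 fold change of 1.69 ± 0.67 (SE) and an adjusted p of 0.14. The log2 fold changes were 0.97 ± 0.90 (SE, 95% interval -0.79 to 2.72, adjusted p 0.90) for ZK218.16, 0.38 ± 0.83 (SE, interval -1.23 to 2.003, adjusted p 0.99) for ZK218.18 and -0.40 ± 0.59 (SE, interval -1.54 to 0.75, adjusted p 0.97) for ZK218.19. ZK218.12 received no adjusted p, because DESeq2's filter on outlying counts removed it. Its fitted value was -2.32 ± 3.17 (SE).

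With the replicate number as a block, 2 copies were called higher by DESeq2. ZK218.17 then had a log2 fold change of 1.81 ± 0.41 (SE, adjusted p 0.000113). ZK218.12 had 6.74 ± 2.31 (SE, adjusted p 0.0183), although it was higher in 2 of 3 pairs and fell from 46.7% to 3.53% of 5S counts in the other. In that fit 14.1% of transcripts were called higher. edgeR with the same block called ZK218.17 (log2 fold change 1.73, adjusted p 0.0352) and not ZK218.12 (6.53, adjusted p 0.49), where 7.09% of transcripts were called higher. Over the 15 alternatives tried, the log2 fold change of ZK218.17 ran from 1.44 to 2.22 and its adjusted p from 0.000113 to 0.44. Without vector control 2 the same 2 copies were called, with adjusted p of 0.065 for ZK218.12 and 0.000161 for ZK218.17, in a fit that called 10.3% of transcripts. Without *rpc-1* RNAi 1, ZK218.17 was the 1 copy called (adjusted p 0.064), in a fit that called 17.8%. The log2 fold change of the sum ran from 0.01 to 0.25 over its 15 alternatives, with adjusted p of 0.83 or more.

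**Figure D5:**
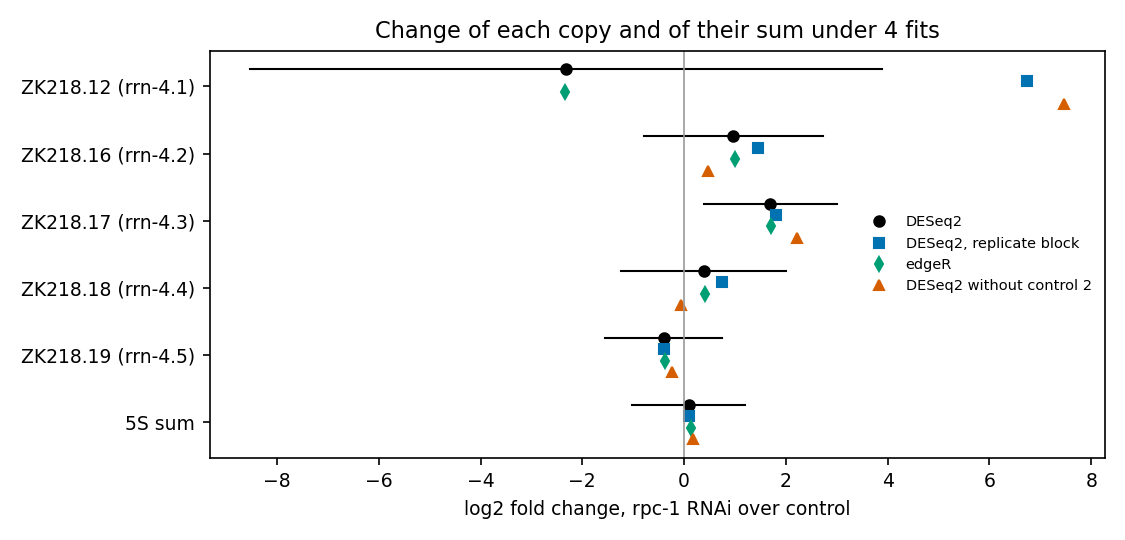
Log2 fold change (*rpc-1* RNAi over control) of each copy and of their sum under 4 fits. Lines are 95% intervals of the DESeq2 fit without a block: ZK218.12 changes from -2.32 to 6.74 with the block and to 7.47 without control 2, while ZK218.17 and the sum stay within 1.69 to 2.22 and 0.09 to 0.18.

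Of the other Pol III classes followed here, DESeq2 called none, in a fit that called 7.29% of all 1083 tested transcripts. For so few transcripts, no call is close to that share. The 3 7SL RNAs (median log2 fold change -0.24), RNase P RNA (-0.30), RNase MRP RNA (0.24) and the Y RNA (-0.82) had values on both sides of 0. The median over the 4 tested 5S copies was 0.68, with ZK218.12 left out because it received no adjusted p. These copies share reads, and their sum, with ZK218.12 in it, had a log2 fold change of 0.09.

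Of the SL1 RNA genes of the array, 2 had rows of their own. ZK218.13 (*sls-1.10*), between ZK218.19 and ZK218.12 on the other strand, had 25981, 32252 and 42589 normalised counts in controls and 34133, 37125 and 41836 in *rpc-1* RNAi. There were 173 ± 34.4 5S counts per ZK218.13 count in controls and 160 ± 27.5 in *rpc-1* RNAi (SD, n = 3), with overlapping groups (exact permutation p 0.70). Y102A5D.13 (*sls-1.1*), at the far end of the array, had 3928, 2699 and 3029 normalised counts in controls and 1867, 1285 and 1533 in *rpc-1* RNAi, and the groups did not overlap. Its log2 fold change was -1.04 ± 0.60 (SE), with a DESeq2 adjusted p of 0.50, and 3.88e-08 with the replicate block. 5S counts per Y102A5D.13 count were 1811 ± 498 in controls and 3884 ± 519 in *rpc-1* RNAi (SD, n = 3, exact permutation p 0.10). The 5S sum thus kept its ratio to ZK218.13 within the spread, but not its ratio to Y102A5D.13. ZK218.13 is a 98-base model and Y102A5D.13 a 68-base model, and Ensembl gives the name of each to other SL1 genes of the array. How counts on these 2 rows relate to SL1 genes outside the table was not tested.

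As a description over the 6 samples, the 3 transcripts whose log2 normalised counts followed the 5S sum most closely, of 633 with a mean of at least 100, were C36C9.8 (an ncRNA, Pearson's r 0.87), C16D9.12 (an ncRNA antisense to a tRNA gene, 0.84) and B0285.12 (*srpr-1.2*, a 7SL RNA, 0.83). 7SL RNA is the RNA of the signal recognition particle, which directs proteins to the endoplasmic reticulum. B0285.12 had 8450, 15114 and 9719 normalised counts in controls and 18559, 11760 and 16917 in *rpc-1* RNAi. C36C9.8 had 0, 365 and 100 in controls and 3762, 1110 and 721 in *rpc-1* RNAi, a far wider range than that of the 5S sum. C16D9.12 had 25.1, 274 and 22.0 in controls and 721, 243 and 147 in *rpc-1* RNAi. Being the highest of 633 values from 6 samples, such r can arise from the selection alone. These values share libraries and size factors with the 5S sum. Among the copies, ZK218.16 and ZK218.18 had an r of 0.97, which control 2 shapes since both are low there. ZK218.16 and ZK218.19 had an r of -0.82, which control 2 also shapes, with the lowest ZK218.16 and the highest ZK218.19. Neither r was recomputed without control 2.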

How the data were processed

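Short RNA from 3 vector control and 3 *rpc-1* RNAi samples was quantified by the authors, who trimmed reads with Cutadapt, assigned them with Salmon to a WBcel235 transcriptome that included noncoding RNAs, and deposited the estimated counts of transcripts under 300 bases as whole numbers. Salmon shares ambiguous reads among similar transcripts by a statistical model, so counts of single 5S copies are uncertain. Use of strand is not given in the sources used here. Columns were matched to samples by title. No genome sequence was used here, and no 5S sequence is given.

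From these counts, shares and ratios were computed in Python 3.11.15. DESeq2 (1.42.0) Wald tests at 10% FDR with group as the only term were run in R 4.3.3. They used the table as deposited and again with the 5 copies summed. edgeR (4.0.16), other size factors, count filters, a replicate block and leaving out each sample were the alternatives. Single values were compared by exact permutation of the 6 labels (20 labelings). Scripts were tested on simulated data. Names and positions came from Ensembl and RefSeq annotation of WBcel235, matching 2506 of 2526 transcripts.

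Whether replicate numbers pair the samples was checked from deviations from the group means. Same-numbered samples correlated at 0.55, 0.20 and 0.40, and differently numbered samples at -0.41 to 0.14. The numbers were used as pairs only in the paired comparisons and the blocked fits. Because the check used the same data as those fits, it cannot establish a pairing. The labels do not state a pairing. Within each group, no 2 samples agreed within sampling noise. All 5 copies and 5.8S rRNA were named, other Pol III classes were given as counts, and the 3 transcripts most like the 5S sum were named by correlation. The members and lists were chosen with earlier results of these data known.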

Additional observations from a re-analysis of the deposited data

How the results depend on the processing

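The number of copies past 10% FDR was 0 in the main analysis, which called 79 of 1083 transcripts (7.29%). It was 1 (ZK218.17) with size factors set without Pol III classes (adjusted p 0.00387, log2 fold change 1.68), with total-count size factors (0.000746, 1.88), with a mean count of at least 10 (0.0137, 1.68), and with edgeR and a replicate block, with the filter (0.0352, 1.73) or without it (0.0146, 1.82), both fits chosen after seeing the data. The transcripts called in these 5 fits came to 127 (12.3%), 128 (12.4%), 106 (13.2%), 175 (20.7%) and 164 (6.49%). It was 2 with DESeq2 and a replicate block (ZK218.17 at 1.81, ZK218.12 at 6.74), where 278 transcripts (29.0%) were called. Leaving out each sample gave 0 to 2 copies, with the log2 fold change of ZK218.17 at 1.44 to 2.22. It was called without vector control 2 (2.22) and without *rpc-1* RNAi 1 (1.64). The cause was not tested.

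ZK218.12 reversed from -2.32 to 6.74 with the DESeq2 block, to 6.53 and 6.85 with edgeR and the block, and to 7.47 without vector control 2, and ran from -2.92 to 7.47 over the samples left out. ZK218.18 reversed from 0.38 to -0.067 without vector control 2, with a highest value of 0.81. Of the shares, the 5S difference was 9.44 points without ZK218.12 in the sum, with control 2 at 20.7% in place of 32.9%. With control 2 also left out, that difference was 5.94 points. Over the other 4 copies the difference was 0.0386 points for ZK218.17 and -25.4 points for ZK218.19. There, control 2 lost the 46.7% of its 5S counts that ZK218.12 held. The replicate block also brought the SL1 RNA row Y102A5D.13 past the threshold, with DESeq2 (adjusted p 3.88e-08) and with edgeR (0.0378). Among the 5S copies, the block changed the call of ZK218.17 with both tools and that of ZK218.12 with DESeq2 only. It changed the call of no further 5S copy and not that of the 5S sum. The difference between groups (*rpc-1* RNAi minus control) in the log2 ratio of 5S to 5.8S was 0.30 with all samples. Over the samples left out it ran from -0.23 (without *rpc-1* RNAi 1) to 0.81 (without vector control 1), so its sign changed. With 3 samples a group, exact permutation cannot go below p 0.10.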
